A study of Homo sapiens with 8 samples.

Results

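Cyclin D1 and the other regulators of the G1 phase were examined by RNA-seq in J82, a cell line established from human bladder cancer, after its cells were sorted into a side population (SP) and a non-side population (NSP). The 10 genes are the D cyclins (CCND1, CCND2, CCND3), their kinases (CDK4, CDK6), inhibitors of these kinases (CDKN1A, CDKN1B, CDKN1C, CDKN2C) and LTO1, whose exons cross those of CCND1 on the other strand. They are 10 of the 57820 genes in the count table. They were chosen from earlier results of the same SP and NSP libraries, in which CCND1 and LTO1 differed. The SP and NSP values of the 10 genes are therefore a description. Calls of the fit over all genes are given for them as part of that description and support nothing further.

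The study cultured J82 in DMEM with 10% FBS, with no other agent named in the labels, and separated the cells by flow cytometry after staining with the DNA dye Hoechst. SP cells are the fraction that retains little of the dye, and the remaining cells form the NSP. The series holds 4 SP and 4 NSP RNA-seq libraries, numbered 1 to 4 in each group. All libraries come from a single cell line, and the sources used here do not say that they are separate cultures or sorts, so p-values measure the spread between these libraries, which may be technical.

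D cyclins bind CDK4 or CDK6, and the active complex phosphorylates the retinoblastoma protein, which releases E2F transcription factors and lets cells leave G1. Inhibitors of the INK4 family, which includes the CDKN2C product p18, bind the kinases alone. Inhibitors of the CIP/KIP family, the products of CDKN1A (p21), CDKN1B (p27) and CDKN1C (p57), bind cyclin and kinase complexes. CCND1 lies in the 11q13 region, which is often amplified in bladder cancer, and its neighbour LTO1 encodes an adaptor for the maturation of an iron-sulfur protein that acts on ribosomes.

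Library totals ran from 1431823 to 1697218 counts for SP and from 1489033 to 2073526 counts for NSP cells, and 9309 genes had enough counts to be tested. Expression is given as CPM, the count scaled to the library size after TMM normalization by edgeR. Log2 fold changes are SP over NSP, with their standard error (SE), and a gene was called at an adjusted p under 0.05 and a fold change over 1.3 in edgeR's quasi-likelihood test. Of 14 epithelial, urothelial and mesenchymal markers, 7 were tested and 1 was called, against 3.66% of all 9309 tested genes in either direction. EPCAM, KRT5, UPK1A and UPK3A had 3, 1, 1 and 0 counts in all libraries together. The called marker, the simple epithelial keratin KRT7, was at 152 to 360.1 CPM in SP against 475 to 752 CPM in NSP cells (log2 fold change -1.35, SE 0.22, adjusted p = 0.00342 in edgeR). The mesenchymal filament VIM was at 196 to 365 CPM in SP against 347 to 731 CPM in NSP cells (log2 fold change -0.76, SE 0.23, adjusted p = 0.0784 in edgeR) and was called lower by DESeq2, without the filter on low counts and with the replicate number as a model term. KRT8, KRT18, KRT19, UPK2 and CDH2 had 47783, 5472, 418, 253 and 463 counts and were not called. CDH1, GATA3 and PPARG had 24, 34 and 57 counts and were not tested. The exons of KRT7 and VIM each cross those of 2 genes on the other strand. Those of KRT8, KRT18, UPK1A, UPK2, CDH1 and CDH2 each cross the exons of 1 such gene. The summed level of the 14 markers, most of it KRT8, was 3729 to 5085 CPM in SP against 5114 to 6771 CPM in NSP cells. Of 12 blood and endothelial markers, 11 were annotated and 4 of these, PTPRC, CD3E, MS4A1 and HBB, had 0 counts. CD14 had 629 counts, and each of the other markers had at most 2. The summed level of the blood and endothelial markers, nearly all of it CD14, was 37.7 to 85.1 CPM in SP against 13.1 to 52.2 CPM in NSP cells. The part of either marker list in the results was not tested.

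The strand setting of the counting is not given in the sources used here, and the counts of gene pairs on opposite strands were unequal. For GAPDH, a glycolytic enzyme, 13292 counts were recorded over the 8 libraries. The long noncoding RNA (lncRNA) ENSG00000269968, with 422 bp across GAPDH exons, had 464412. In 525 of 595 lncRNA and protein-coding pairs (88.2%), the lncRNA row held more counts per kb. Each pair had at least 100 counts and at least 50% of the lncRNA exon length in the exons of its partner. A value given here is thus the number of reads assigned to the row of a gene. Lower, higher, called and not called likewise refer to that row. Whether those reads came from the strand of that gene was not tested.

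CCND1 (ENSG00000110092.3) lies on the plus strand at chr11:69455924-69469242 of GRCh37, with 4761 bp of exon. LTO1 (ENSG00000149716.8) lies on the minus strand at chr11:69467844-69490184, with 7872 bp of exon. The exons of the genes overlap by 497 bp, all within the last exon of CCND1 and at the 3′ end of LTO1. This is 10.4% of the exon length of CCND1 and 6.31% of that of LTO1.

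**Figure D1:**
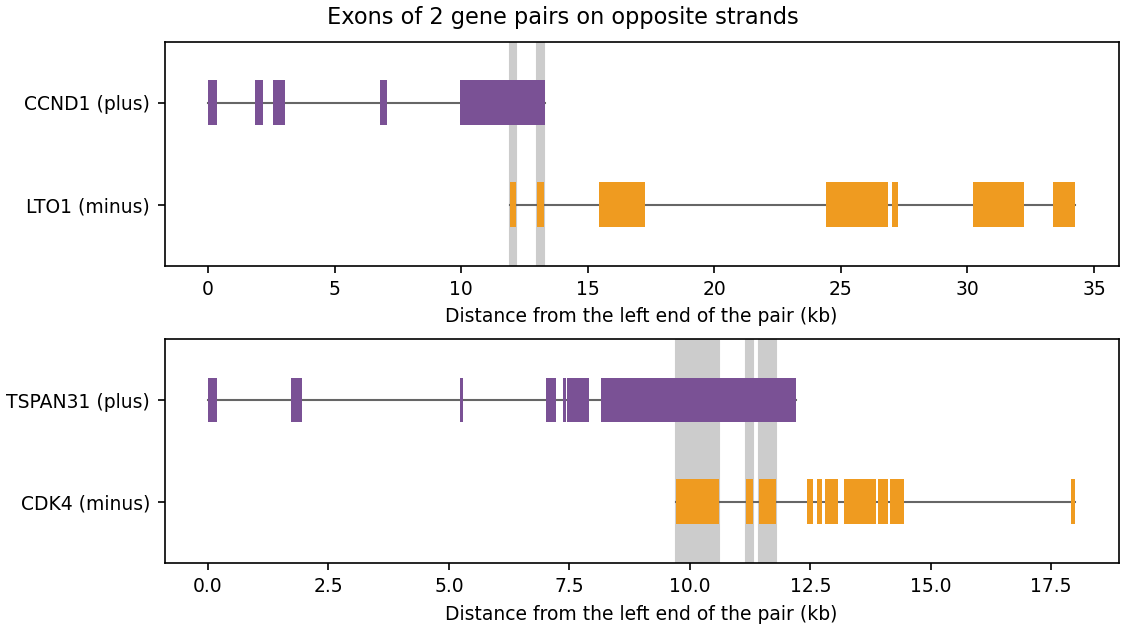
Exon models of CCND1 with LTO1 and of TSPAN31 with CDK4, drawn to scale in kb from the left end of each pair, with the strand beside each name and grey bands where exons overlap. The bands cover 497 bp in the first pair and 1369 bp in the second.

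The overlap does not reach the LTO1 promoter, whose window is shown with that of CDK4. Since LTO1 was chosen on this contrast, nothing is read from its call here. The sequences are RefSeq promoter windows, from 250 bases before to 50 after the transcription start, and run 5′ to 3′ on the minus strand of GRCh37, at chr11:69490072-69490371 for LTO1 and chr12:58146044-58146343 for CDK4. Capitals mark the GC box GGGCGG in either orientation.
LTO1: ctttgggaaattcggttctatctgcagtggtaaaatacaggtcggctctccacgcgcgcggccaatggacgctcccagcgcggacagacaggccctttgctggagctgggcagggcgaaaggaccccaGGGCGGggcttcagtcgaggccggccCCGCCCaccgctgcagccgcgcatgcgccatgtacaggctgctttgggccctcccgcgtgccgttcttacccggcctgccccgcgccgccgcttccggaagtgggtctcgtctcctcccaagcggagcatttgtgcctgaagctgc
CDK4: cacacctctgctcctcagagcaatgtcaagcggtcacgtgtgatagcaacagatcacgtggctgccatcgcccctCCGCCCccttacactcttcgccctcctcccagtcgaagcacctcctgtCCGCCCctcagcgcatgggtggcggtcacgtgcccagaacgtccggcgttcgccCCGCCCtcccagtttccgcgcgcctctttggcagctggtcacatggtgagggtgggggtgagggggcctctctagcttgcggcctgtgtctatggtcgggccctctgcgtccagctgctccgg
The LTO1 window holds 2 GC boxes and the CDK4 window holds 3, and 44.9% of all 34943 promoter windows in the RefSeq table (GRCh38.p14) hold at least 1. Windows were found for 7 of the 10 genes, and CCND1, CCND2 and CDKN1C had none. The CRE (TGACGTCA, in 1.84% of all windows), the AP-1 site (TGACTCA, in 4.96%) and the TATA box (TATAAA, in 11.6%) matched no window of the 7 genes on either strand. The same held for the CRE-like TAACGTCA, in 0.349% of all windows, and for the E2F sites TTTGGCGC, TTTCCCGC, TTTGCCGC and TTTCGCGC, of which at least 1 was in 3.30%. The forkhead core TGTTTAC, in 3.42% of all windows, matched 1 of the 3 windows of CCND3. These are matches of letters only.

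CCND1 was lower in SP cells. Its counts were 166, 123, 299 and 139 in SP replicates 1 to 4 and 583, 597, 502 and 349 in NSP replicates 1 to 4. In CPM these are 117, 80.8, 159 and 100.2 in SP cells and 304, 289, 314 and 236 in NSP cells. The groups did not overlap, and the highest SP library, replicate 3, stayed below the lowest NSP library, replicate 4. The mean was 114 ± 33.1 CPM in SP against 286 ± 34.4 CPM in NSP cells (SD, n = 4 per group), a level 2.50 times as high in NSP cells. The log2 fold change was -1.32 (SE 0.19), and it ran from -1.52 without SP replicate 3 to -1.19 without SP replicate 2. Within the same-numbered pairs of libraries, the log2 ratio was -1.37, -1.83, -0.98 and -1.23. In bulk RNA, fewer cells that express a gene and less RNA per cell cannot be told apart.

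LTO1 had more counts than CCND1 in every library and was also lower in SP cells. Its expression was 440.4, 369, 418 and 412 CPM in SP replicates 1 to 4 and 1094, 1039, 1431 and 1106 CPM in NSP replicates 1 to 4. The SP libraries were close to each other, and NSP replicate 3 stood above the other NSP libraries. The mean was 409.9 ± 29.9 CPM in SP against 1167 ± 178 CPM in NSP cells (SD, n = 4 per group), with a log2 fold change of -1.51 (SE 0.15). Counted from the lowest log2 fold change, LTO1 was number 55 and CCND1 number 91 of the 9309 tested genes.

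The share of CCND1 and LTO1 in their joint counts was compared between the groups. The count of LTO1 divided by that of CCND1 was 3.76, 4.57, 2.64 and 4.12 in SP libraries and 3.602, 3.598, 4.56 and 4.68 in NSP libraries. These ratios averaged 3.77 ± 0.826 and 4.11 ± 0.591 (SD, n = 4 per group) and overlapped between the groups. CCND1 held 20.5% of the counts of the pair. With the counts of both genes summed to 1 row, the log2 fold change was -1.47 (SE 0.15). Whether LTO1 counts include reads of CCND1, or the reverse, was not tested.

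**Figure D2:**
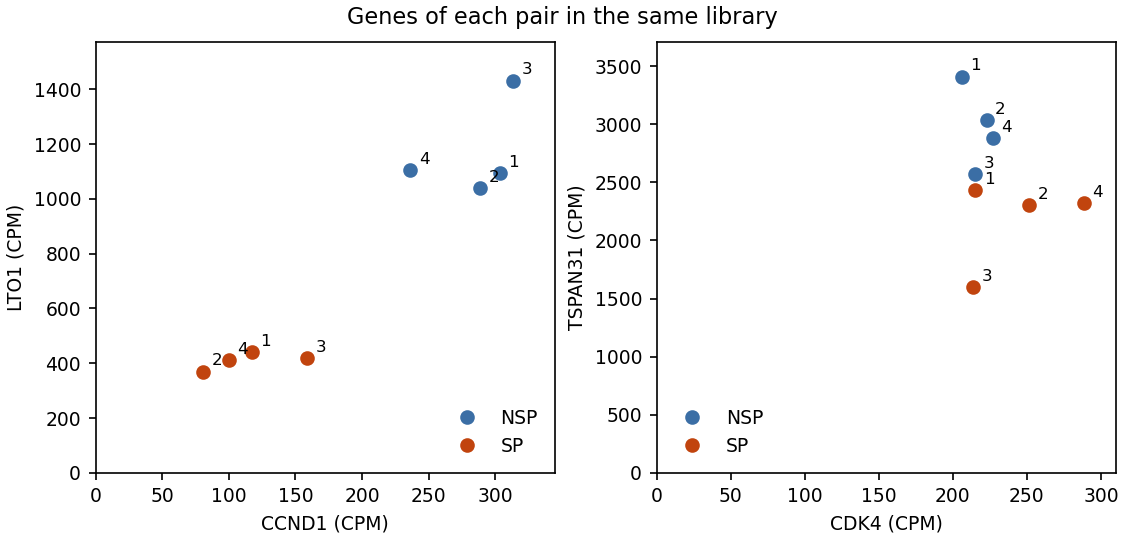
Expression in CPM of CCND1 against LTO1 (left) and of CDK4 against TSPAN31 (right), with 1 point per library, numbered by replicate, in blue for NSP and orange for SP cells. In the left panel the SP libraries lie below the NSP libraries on both axes, and in the right panel the groups separate on the TSPAN31 axis and not on the CDK4 axis.

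The other D cyclins were low or not called. CCND2 (chr12:4378937-4414519, plus strand) had 1 count in the 8 libraries together, in NSP replicate 2. A count of 0 allows up to 3 counts, which correspond to 1.45 to 2.16 CPM in a library, for counting error only. CCND2 was thus not detected in the other libraries. CCND3 (chr6:41902672-42018095, minus strand) was at 38.8, 34.8, 58.9 and 38.9 CPM in SP replicates 1 to 4 and 44.3, 34.3, 35.0 and 31.8 CPM in NSP replicates 1 to 4. SP replicate 3 was the highest library and the remaining ones overlapped. The log2 fold change of CCND3 was 0.24 (SE 0.21), and it was 0.04 without SP replicate 3.

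The kinases were not called. CDK4 (ENSG00000135446.12, chr12:58141510-58149796, minus strand) was at 215, 251, 214 and 288 CPM in SP replicates 1 to 4 and 206, 223, 215 and 227 CPM in NSP replicates 1 to 4. Its mean was 242 ± 35.4 CPM in SP against 218 ± 9.12 CPM in NSP cells (SD, n = 4 per group), with a log2 fold change of 0.15 (SE 0.14). The groups overlapped, with SP replicates 2 and 4 above every NSP library. CDK6 (chr7:92234235-92465887, minus strand), the other D cyclin kinase, had only 5, 13, 18 and 7 counts in SP libraries and 2, 12, 9 and 5 in NSP libraries, too few for the test. Its level was 6.66 ± 2.84 CPM in SP against 3.96 ± 2.24 CPM in NSP cells (SD, n = 4 per group), higher in the SP library of 4 of 4 same-numbered pairs.

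CDK4 also shares exons with a gene on the other strand. TSPAN31 (ENSG00000135452.5, chr12:58131796-58144002, plus strand), a tetraspanin, overlaps the exons of CDK4 by 1369 bp, or 44.3% of the CDK4 exon length. TSPAN31 was at 2433, 2302, 1600 and 2322 CPM in SP replicates 1 to 4 and 3409, 3034, 2570 and 2878 CPM in NSP replicates 1 to 4. All SP libraries were below all NSP libraries, with a log2 fold change of -0.46 (SE 0.17, adjusted p = 0.170 in edgeR). In a model that takes the replicate number shared by an SP and an NSP library as a term (replicate block), TSPAN31 was called lower in SP cells (log2 fold change -0.47, adjusted p = 0.00618 in edgeR). CDK4 held 8.09% of the counts of the pair, and the count of TSPAN31 divided by that of CDK4 was 7.49 to 11.3 in SP cells and 11.96 to 16.5 in NSP cells. With the counts of both genes summed, the log2 fold change was -0.41 (SE 0.17), opposite in sign to that of CDK4 alone. The opposite-strand partners of CCND3, CDK6 and CCND2 had 5, 1 and 0 counts, and CDKN1A, CDKN1B, CDKN1C and CDKN2C have no such partner.

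The tested inhibitors had log2 fold changes of both signs, and 0 of them were called. CDKN1A (ENSG00000124762.9, chr6:36644237-36655114, plus strand), which encodes p21 and is a target of p53, had 5, 9, 15 and 3 counts in SP libraries and 22, 32, 21 and 6 in NSP libraries. Its level was 3.53, 5.91, 7.96 and 2.16 CPM in SP replicates 1 to 4 and 11.5, 15.5, 13.1 and 4.06 CPM in NSP replicates 1 to 4. It was lower in SP cells in 4 of 4 same-numbered pairs, while NSP replicate 4 lay within the range of the SP libraries. The log2 fold change of -1.14 (SE 0.42) was not called, and with the replicate block it was -1.16 (SE 0.35) and called.

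CDKN1B (ENSG00000111276.6, chr12:12838432-12875303, plus strand), which encodes p27, was at 28.2, 29.5, 28.1 and 19.5 CPM in SP replicates 1 to 4 and 16.2, 11.6, 15.6 and 27.8 CPM in NSP replicates 1 to 4. The order was reversed in replicate 4, and the SP library was higher in the other pairs. The log2 fold change was 0.59 (SE 0.27), not called, and 0.87 without NSP replicate 4.

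CDKN2C (ENSG00000123080.6, chr1:51426417-51440306, plus strand), which encodes p18, was at 38.8, 53.2, 112 and 38.2 CPM in SP replicates 1 to 4 and 31.8, 55.2, 81.2 and 42.7 CPM in NSP replicates 1 to 4. Replicate 3 was the highest library in both groups. Its log2 fold change of 0.23 (SE 0.33) was not called and turned to -0.27 without SP replicate 3. CDKN1C (chr11:2904443-2907005, minus strand), which encodes p57, had 1, 1, 2 and 4 counts in SP libraries and 10, 11, 0 and 3 in NSP libraries, and was not tested.

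**Figure D3:**
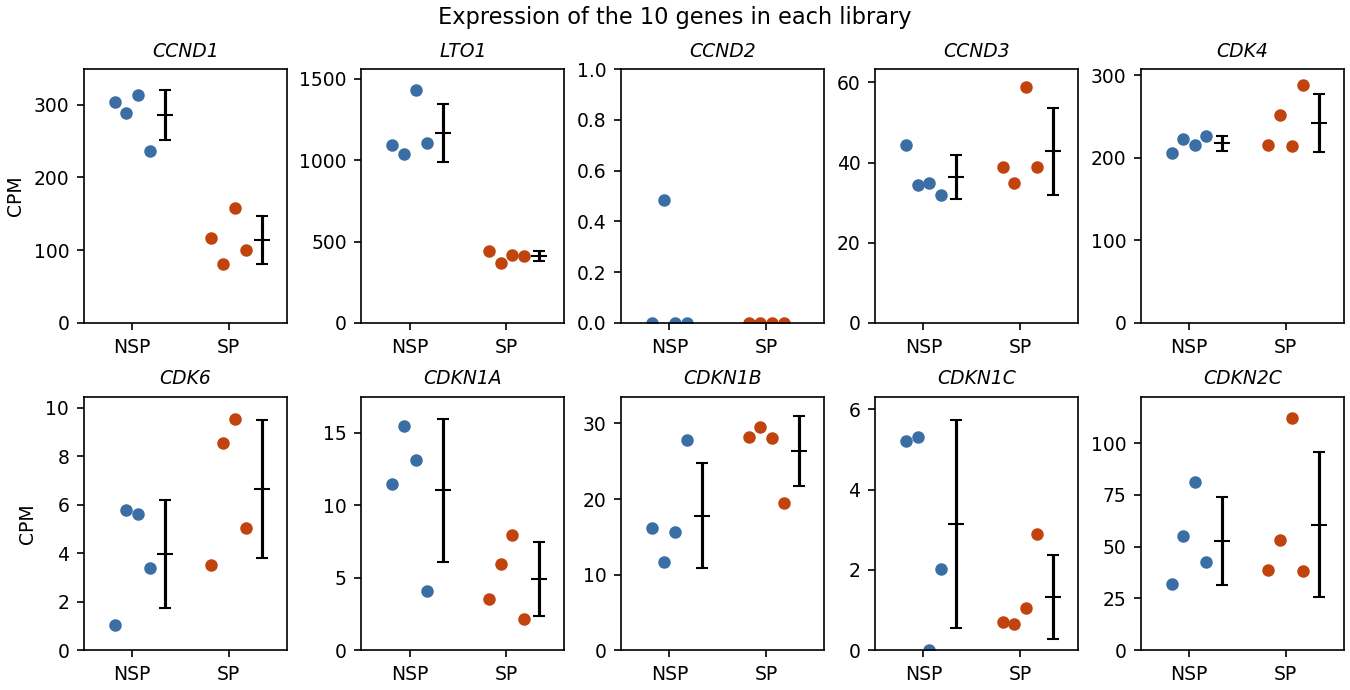
Expression in CPM of the 10 genes in each of the 4 NSP (blue) and 4 SP (orange) libraries, on linear axes from 0, with the mean and SD in black (none for CCND2, with a single count). CCND1 and LTO1 are the genes whose groups do not overlap.

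Of the 10 genes, 7 were tested, 2 were called lower (CCND1 and LTO1), 0 were called higher and 5 were not called. An unadjusted edgeR p under 0.05 was seen for 1 gene that was higher and 3 that were lower, and DESeq2 also called 0 higher and 2 lower. Over all tested genes 3.66% were called, 2.03% lower and 1.63% higher in SP cells. The CPM values of the groups did not overlap for 2 of the 7 genes and for 9.75% of all tested genes. With the replicate block 3 of the 7 were called, all lower (CDKN1A in addition). In that fit 12.9% of all tested genes were called in either direction, and 652 of 9309 were called lower. Since the genes were chosen on this contrast, nothing is read from these shares. The median log2 fold change of the 7 genes was 0.15, and that of all tested genes was 0.01.

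**Figure D4:**
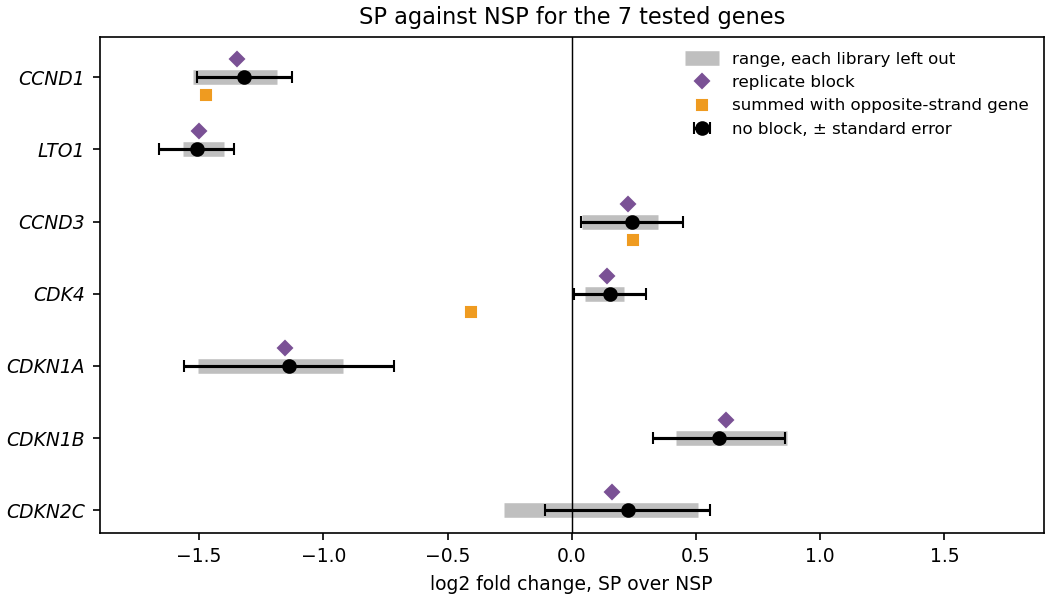
Log2 fold change, SP over NSP, of the 7 tested genes without the replicate block (black, ± SE), with it (purple) and with the counts of the opposite-strand gene added (orange), over grey bars for the range when each library is left out in turn. CCND1 and LTO1 stay below -1 throughout, CDK4 changes sign when summed with TSPAN31, and CDKN2C changes sign when SP replicate 3 is left out.

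The levels of the 10 genes were compared per kb of exon. Over the 8 libraries the mean was 100.2 CPM per kb for LTO1, 74.3 for CDK4, 42.0 for CCND1, 18.8 for CDKN2C and 6.88 for CCND3. Below these were CDKN1A at 2.66 CPM per kb, CDKN1B at 2.38, CDKN1C at 0.901, CDK6 at 0.434 and CCND2 at 0.00757. LTO1 exceeded CDK4 in 0 of 4 SP and in 4 of 4 NSP libraries, so the order at the top differed between the groups. In SP cells CDK4 was at 78.3 ± 11.4 CPM per kb, LTO1 at 52.1 ± 3.80 and CCND1 at 24.0 ± 6.96. In NSP cells LTO1 was at 148 ± 22.6, CDK4 at 70.4 ± 2.95 and CCND1 at 60.0 ± 7.22 CPM per kb (SD, n = 4 per group). CDK4 exceeded CCND1, CDKN2C exceeded CCND3 and CCND3 exceeded CDKN1A in all 8 libraries. The neighbours CDKN1A and CDKN1B were not separated, with CDKN1A higher in 3 of 8 libraries, and neither were CDKN1C and CDK6, with CDKN1C higher in 4 of 8. CCND1 was above CDKN2C in 2 of 4 SP and in 4 of 4 NSP libraries. This order holds for reads as assigned to each row. The rows across the exons of CDK4 and CCND1 were higher, with TSPAN31 at 489 against 74.3 CPM per kb and LTO1 at 100.2 against 42.0, and the strand of these reads was not tested.

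The genes whose pattern was most like that of CCND1 were found by Pearson correlation of log2(CPM + 1) over the 8 libraries. As CCND1 separates the groups, this correlation carries mainly the difference between SP and NSP cells. ERLNC1, a lncRNA on chromosome 1, had a correlation of 0.972 and was at 6.49 to 7.96 CPM in SP against 14.2 to 18.1 CPM in NSP cells. UBE2C, a ubiquitin-conjugating enzyme of the anaphase-promoting complex, had 0.967. TIMELESS, a protein of the replication fork, had 0.959 and was at 15.8 to 22.3 CPM in SP against 25.6 to 30.7 CPM in NSP cells. The lncRNAs ENSG00000269867 and ENSG00000267092, both on chromosome 19, had 0.965 and 0.958. LTO1 had 0.942, with 13 tested genes above it when CCND1 itself is counted. A correlation above 0.9 was seen for 55 genes, CCND1 and LTO1 among them.

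The genes downstream and upstream of the D cyclins were examined in 6 lists with 128 genes, of which 86 were tested. In SP cells 2 of the 86 were called higher and 3 lower, against 1.63% and 2.03% of all tested genes. With the replicate block 3 of the 86 were called higher and 14 lower, against 548 and 652 of all 9309 tested genes. In the RB and E2F axis (24 genes, 14 tested) 0 were called by edgeR and 0 by DESeq2, while 1 had a higher and 1 a lower level with an unadjusted edgeR p under 0.05. The median log2 fold change of this list was -0.19. CDKN2A, the INK4 and ARF gene, had the most counts in the list, with 446 ± 15.7 CPM in SP against 505 ± 67.0 CPM in NSP cells (SD, n = 4 per group). The log2 fold change of CDKN2A was -0.18 (SE 0.14). Its neighbour CDKN2B, which encodes p15, was at 171, 179, 125 and 142 CPM in SP replicates 1 to 4 and 104, 103, 102 and 117 CPM in NSP replicates 1 to 4. The lowest SP library exceeded the highest NSP library, with a log2 fold change of 0.53 (SE 0.16, adjusted p = 0.0751 in edgeR). With the replicate block CDKN2B was called higher, and CCNH, the cyclin of the CDK-activating kinase, was called lower (log2 fold change -0.62).

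RB1, which encodes the retinoblastoma protein, was at 18.8 ± 2.03 CPM in SP against 15.2 ± 3.83 CPM in NSP cells, and E2F1 was at 99.1 ± 13.7 and 119 ± 13.3 CPM (SD, n = 4 per group). CCNE1, the E-type cyclin that acts after the D cyclins, was at 11.3 to 16.4 CPM in SP against 16.9 to 21.4 CPM in NSP cells. These ranges did not overlap, and the log2 fold change of -0.48 (SE 0.24) was not called. Its kinase CDK2 was at 16.4 ± 5.82 and 17.0 ± 2.29 CPM (SD, n = 4 per group). None of RB1, E2F1 and CDK2 passed the test.

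Of 24 genes for the turnover and binding partners of D cyclins and their inhibitors, 17 were tested and 0 were called by edgeR or DESeq2. An unadjusted edgeR p under 0.05 was seen for 0 higher genes and 1 lower gene. Their log2 fold changes ran from -0.51 (DMTF1) to 0.26 (DDB1), with a median of 0.00. CDC37, the cochaperone that delivers CDK4 to HSP90, had the most counts, at 200.1 CPM in SP against 219 CPM in NSP cells.

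Of 15 neighbours of CCND1 in 11q13, 7 were tested and 1 was called, against 3.66% of all tested genes. The median log2 fold change of the 7 neighbours was 0.31, with 6 above 0 and 1 below, while those of CCND1 and LTO1 were below 0. FADD, the adaptor of death receptors, was at 26.1, 33.5, 37.7 and 39.7 CPM in SP replicates 1 to 4 and 8.34, 21.8, 21.9 and 12.9 CPM in NSP replicates 1 to 4. The lowest SP library exceeded the highest NSP library, with a log2 fold change of 1.07 (SE 0.28, adjusted p = 0.0422 in edgeR). The call was lost without 6 of the 8 single libraries. The lncRNA ENSG00000254721, with 1011 bp across FADD exons on the other strand, had 4830 counts against 329 for FADD, at 433 ± 51.7 CPM in SP against 306 ± 116 CPM in NSP cells (SD, n = 4 per group). CTTN, which encodes cortactin and had the most counts in this list, was at 48.0 to 72.7 CPM in SP against 76.5 to 104.9 CPM in NSP cells. CTTN had a log2 fold change of -0.50 (SE 0.17, adjusted p = 0.143 in edgeR) and was called lower with the replicate block.

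Of 25 targets of p53, the regulator of CDKN1A, 14 were tested, with a median log2 fold change of -0.12. In edgeR 1 was called higher and 0 lower, against 1.63% and 2.03% of all tested genes. PLK2, a polo-like kinase, was at 49.4, 80.1, 92.3 and 56.2 CPM in SP replicates 1 to 4 and 26.6, 25.2, 48.1 and 16.3 CPM in NSP replicates 1 to 4. Every SP library was above every NSP library, with a log2 fold change of 1.27 (SE 0.28, adjusted p = 0.0196 in edgeR). The call on PLK2 was lost without 4 of the 8 single libraries. The apoptosis gene BBC3 (log2 fold change -0.79) and the stress gene GADD45A (log2 fold change -0.68) were not called, and both were called lower with the replicate block. MDM2, the ligase of p53, had 64 counts and was not tested.

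Lists of later cell cycle phases are given beside the G1 genes. Of 20 S phase genes, 18 were tested and 1 was called lower, against 2.03% of all tested genes. TYMS, thymidylate synthase, was at 82.7 to 105 CPM in SP against 127 to 151 CPM in NSP cells (log2 fold change -0.56, SE 0.15, adjusted p = 0.0431 in edgeR). Its call was lost without any 1 of the 8 libraries, and ENOSF1 and TYMSOS on the other strand had 18347 and 2593 counts against 1555 for TYMS. MCM2, a subunit of the replicative helicase and the gene with the most counts in the list, was at 353 ± 65.4 and 475 ± 28.4 CPM (SD, n = 4 per group) and was not called, but was called lower with the replicate block.

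Of 20 genes of G2 and M, 16 were tested, with a median log2 fold change of -0.42. In edgeR 2 were called lower and 0 higher, against 2.03% and 1.63% of all tested genes. With the replicate block 8 of the 16 were called, all lower, against 652 of all 9309 tested genes called lower in that fit. TOP2A, the topoisomerase of dividing cells, was at 17.6, 11.2, 29.7 and 11.5 CPM in SP replicates 1 to 4 and 34.4, 34.3, 48.7 and 54.9 CPM in NSP replicates 1 to 4 (log2 fold change -1.25, SE 0.29, adjusted p = 0.0238 in edgeR). UBE2C was at 33.9, 15.8, 47.7 and 18.8 CPM in SP replicates 1 to 4 and 74.0, 68.2, 72.5 and 61.0 CPM in NSP replicates 1 to 4 (log2 fold change -1.23, SE 0.27, adjusted p = 0.0187 in edgeR). The groups did not overlap for either gene, and the calls were lost without 4 and 2 of the 8 single libraries. MKI67, a proliferation marker with the most counts in the list, was at 85.6 ± 67.3 CPM in SP against 127 ± 53.4 CPM in NSP cells (SD, n = 4 per group).

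Replicate 3 had the highest level of the G2 and M genes in both groups. Their summed level was 343, 409, 872 and 312 CPM in SP replicates 1 to 4 and 575, 697, 948 and 700.3 CPM in NSP replicates 1 to 4. Without SP replicate 3, 6 genes of G2 and M were called lower, and without SP replicate 2 the number was 0. Over all genes, 161 and 110 were called lower in these fits. Their median log2 fold change ran from -0.93 without SP replicate 3 to -0.23 without NSP replicate 3. SP replicate 3 also had the highest SP level of CCND1, CCND3, CDK6, CDKN1A and CDKN2C. The part of the G2 and M level in these values was not tested.

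**Figure D5:**
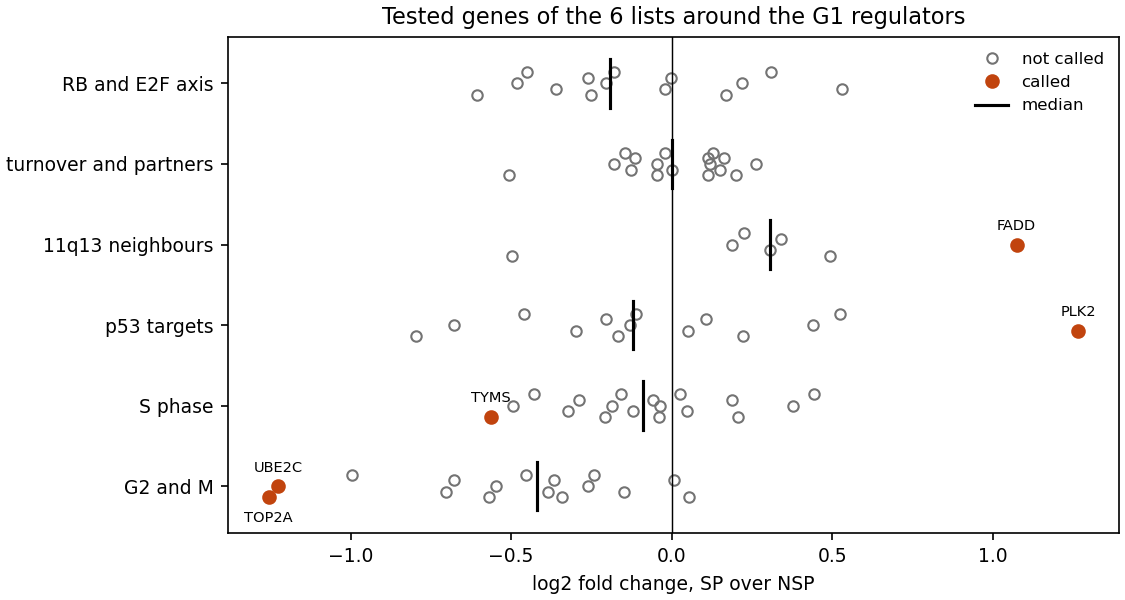
Log2 fold change, SP over NSP, of the 86 tested genes in 6 lists around the G1 regulators, with called genes filled and named and the median of each list as a vertical bar. The medians run from -0.42 for G2 and M to 0.31 for the 11q13 neighbours.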

How the data were processed

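RNA-seq was available for 4 SP and 4 NSP libraries of J82 cells. The authors aligned single-end reads to hg19 with STAR and assigned them to gencode v19 genes with featureCounts (Subread), and the deposited values are raw counts per gene and library, without normalization. Gene symbols, positions and exon lengths came from GENCODE v44 mapped to GRCh37, joined by the identifier without its version, with a match for 55538 genes (96.1%). Exon lengths and overlaps can therefore differ from the models used for counting.

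Counts were tested in R 4.3.3 with edgeR 4.0.16 (TMM, glmQLFit, glmQLFTest and no covariate, after filterByExpr at a count of 10 and a total of 15), and p-values were adjusted by Benjamini-Hochberg over all tested genes. DESeq2 1.42.0 was an alternative. The code was tested on simulated data. Tables were made with Python 3.11.15. CPM used TMM-scaled library sizes, and CPM per kb used the union of exons.

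The groups share replicate numbers. Each library's deviation from its group mean correlated with that of the same number in the other group, at 0.383, 0.205, 0.323 and 0.323 for numbers 1 to 4. The libraries were therefore treated as paired in an alternative fit with a replicate block. Within a group, replicates differed by more than the sampling noise (chi-square per degree of freedom 7.76 to 19.5). Each was counted as 1 sample, although this spread may be technical and does not show separate cultures or sorts.

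The 10 genes and the lists were chosen with earlier results of these data known. Genes were named if they were among the 10, lay across their exons with at least 100 counts, were called in a list (KRT7 in the marker list), had the most counts in a list or were among the 5 most like CCND1. All other genes were named after their values were seen.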

Additional observations from a re-analysis of the deposited data

Results flagged for a closer look

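In 44 groups of 4 libraries, tested with Dixon's ratio of the gap to the range, 3 held a library far from the others, and chance gives this in about 1 in 20 groups. CDKN1B in SP replicate 4 was at 19.5 CPM against 28.1 to 29.5 CPM in the other SP libraries (ratio 0.858). TSPAN31 in SP replicate 3 was at 1600.0 CPM against 2302 to 2433 CPM (ratio 0.843). LTO1 in NSP replicate 3 was at 1431 CPM against 1039 to 1106 CPM in the other NSP libraries (ratio 0.829), and its log2 fold change without that library was -1.40.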

How the results depend on the processing

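Of 106 alternative log2 fold changes of the tested genes among the 10, 103 kept their sign and their side of the threshold. CDKN1A was called with the replicate block, CDK4 turned to -0.41 when summed with TSPAN31, and CDKN2C, between -0.27 and 0.51 with single libraries left out, turned to -0.27 without SP replicate 3. With CCND1 and LTO1 summed to 1 gene the count of the 10 called lower was 1, and it was 0 when genes with an opposite-strand exon were left out, as neither was then tested. With each library left out in turn it was 2 in every case. Over all genes, 303 were higher and 381 lower without a filter on low counts, 548 and 652 with the replicate block, and 61 and 65 without genes that have an opposite-strand exon, which are 54.2% of those tested. Leaving out single libraries gave 69 to 164 higher and 89 to 181 lower, lowest without NSP replicate 2. In the 6 lists, leaving out single libraries gave 0 to 2 higher and 0 to 6 lower, with 0 in both directions without SP replicate 2. Without genes that have an opposite-strand exon 1 was higher, against 61 over all genes. Without the filter 5 were lower, against 381 of all 26361 genes with a count. With the replicate block 14 of the 86 tested list genes were lower, against 652 of all 9309 tested genes. The median of the p53 targets was 0.09 over the 25 genes fitted without the filter and -0.14 over the 14 of them that pass it. TYMS was not called with upper-quartile normalization or without the filter. By longest transcript instead of exon union, CDKN1A and CDKN1B exchanged places in the order of levels. The cause of these changes was not tested. CCND2, CDK6 and CDKN1C, with 1, 71 and 32 counts in all, had too few counts for the test. Whether depth or the strand of the counting limits them was not tested.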
